A study of Mus musculus with 2 samples.

Results

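Imprinted genes are transcribed mainly from the copy inherited from a given parent, typically because DNA methylation laid down in egg or sperm marks a nearby control region on the copy from a single parent. The methylated copy can be the silent or the expressed one, depending on the cluster. Most lie in clusters that share such a control region, and many act on fetal and placental growth: as a broad rule, paternally expressed genes such as Igf2 promote growth and maternally expressed genes such as Cdkn1c and Igf2r restrain it. A listed set of 42 imprinted mouse genes was followed here in posterior embryo tissue. Its members were chosen by name, with earlier results of these data known. All 42 had a probe among the 32905 genes on the array. By textbook knowledge 18 are expressed from the paternal copy and 23 from the maternal copy, while Gnas yields transcripts of differing parental origin. The probes read total RNA of a gene and do not tell its parental copies apart.

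The mutant embryos were Cdx2+/-Cdx4-/-, with a single intact copy of Cdx2 and none of Cdx4, and they were compared with wildtype embryos at 13 somites. Cdx2 and Cdx4 encode caudal-type homeobox transcription factors of the posterior body axis. Tissue cut at a matched axial level, guided by the border of the last somite, was pooled from 7 embryos of each genotype. Both pools were hybridised together on 2 dual-colour arrays with exchanged dyes, replicate 1 with the mutant pool in Cy5 and replicate 2 with the mutant pool in Cy3. The labels were read as 1 pool per genotype, but whether the same extracts served both arrays is not stated. Under that reading differences between the pools have no biological replicate check, no p-value is given, and each SD below is the technical spread of 2 arrays; with separate extracts it would also hold variation between them. The strain, sex and direction of the cross are not given in the sources used here.

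A gene was called detected when the scanner software flagged it well above background for at least 1 genotype on both arrays, which held for 25992 genes. Across the arrays, between 77.4% and 82.5% of the gene spots were well above background for a genotype. The check of the deleted gene gave log2 ratios (mutant over wildtype) of -2.61 and -2.44 for Cdx4, while Cdx2, with a copy left intact, gave 0.02 and -0.12. The sources used here do not place either probe relative to the mutated stretch of its gene. Of 11 markers of paraxial mesoderm 9 were detected, including Tbx6 and Msgn1 of the unsegmented tail mesoderm. Over all detected genes the median log2 ratio was 0.00, and the pooled SD of a gene between the arrays was 0.19.

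Of the 42 imprinted genes 38 were detected, namely 15 of 18 paternally expressed genes, 22 of 23 maternally expressed genes and Gnas. The paternally expressed Dio3, Plagl1 and Snrpn and the maternally expressed Calcr were not well above background in either pool on both arrays, so no ratio is given for them. Ascl2 was detected through the wildtype pool alone, and its signal was not above 95% of the negative control spots. The counts that follow describe the detected genes and not the whole list.

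No imprinted gene was 1.5-fold higher, and none was 1.5-fold lower, in the mutant pool on each array, where 0.212% of all detected genes were higher and 0.231% were lower by that rule. At 1.3-fold on each array, 2 of the 38 imprinted genes were higher (5.26%), the paternally expressed Nnat and Peg12, against 0.539% of all detected genes. At the same size 3 were lower (7.89%), the maternally expressed Cdkn1c, Asb4 and Slc22a18, against 0.75% of all detected genes. The log2 ratio was above 0 on each array for 11 imprinted genes (28.9%), against 23.3% of all detected genes, and below 0 on each array for 15 (39.5%, or 14 of 37 without Ascl2), against 24.4%. The other 12 of 38 had ratios of opposite sign on the arrays, against 13588 of the 25992 detected genes. None of the 12 had opposite signs by 1.3-fold on both arrays, which was also rare among all detected genes (248 of 25992). With median centring in place of loess, none of these 2 higher and 3 lower genes passed 1.3-fold on each array. With the scanner software's own ratio in place of normexp and loess, Dcn was higher and Cdkn1c and Slc22a18 were lower by 1.5-fold on each array. The share of all detected genes past 1.5-fold by that ratio is not given here, and the shares above do not serve as its comparison.

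Read over both arrays, the signals of the pools did not overlap, with the mutant signals the higher ones, for 8 of the 38 imprinted genes (21.1%, against 9.54% of all detected genes). The mutant signals were the lower ones without overlap for 9 (23.7%, against 10.8%), or for 8 of 37 (21.6%) without Ascl2. Imprinted genes were more often bright than the rest of the array, with a mean log2 intensity of at least 10 for 14 of 38 (36.8%) and for 12.3% of all detected genes. Among these 14, none was higher and 2 were lower by 1.3-fold on each array (14.3%), against 0.782% and 1.16% of the 3196 bright genes. Of the same 14, the ratio lay above 0 on each array for 2 (14.3%, against 28.3% of the bright genes) and below 0 for 7 (50%, against 27%).

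**Figure D1:**
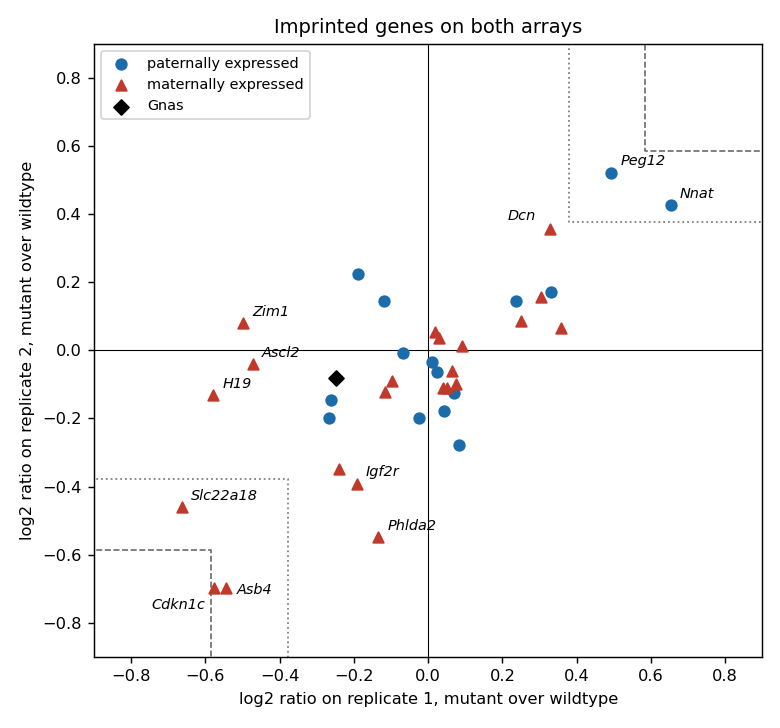
Log2 ratio of mutant over wildtype on replicate 1 (horizontal) and on replicate 2 (vertical) for the 38 detected imprinted genes, as circles for paternally expressed genes, triangles for maternally expressed genes and a diamond for Gnas; dashed lines mark 1.5-fold and dotted lines 1.3-fold on both arrays. Cdkn1c, Asb4 and Slc22a18 lie in the dotted corner at the lower left and Nnat and Peg12 in that at the upper right, and no gene lies inside a dashed corner.

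Promoters of the genes past 1.3-fold are shown to let their CG content and match to a Cdx motif be read; each runs from 250 bases before to 50 bases after a start site in RefSeq (GRCm38.p6), 5′ to 3′ on the gene's strand. Capitals mark CG dinucleotides, the sites of DNA methylation, and the letters TTTATG of the Cdx motif core or their complement on the other strand. Of the 5 genes 4 had an entry. The sequences lie at chr2:157559828-157560127 (plus strand) for Nnat, chr7:62464461-62464760 (minus strand) for Peg12, chr7:143473539-143473838 (plus strand) for Slc22a18, and chr6:5383136-5383435 and chr6:5390160-5390459 (plus strand) for the 2 starts of Asb4.
Nnat: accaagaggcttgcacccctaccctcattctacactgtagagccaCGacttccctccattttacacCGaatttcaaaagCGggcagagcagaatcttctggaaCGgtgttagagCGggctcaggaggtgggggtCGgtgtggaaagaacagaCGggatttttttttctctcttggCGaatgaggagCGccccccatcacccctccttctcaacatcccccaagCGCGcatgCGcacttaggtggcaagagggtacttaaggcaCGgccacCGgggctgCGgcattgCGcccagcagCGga
Peg12: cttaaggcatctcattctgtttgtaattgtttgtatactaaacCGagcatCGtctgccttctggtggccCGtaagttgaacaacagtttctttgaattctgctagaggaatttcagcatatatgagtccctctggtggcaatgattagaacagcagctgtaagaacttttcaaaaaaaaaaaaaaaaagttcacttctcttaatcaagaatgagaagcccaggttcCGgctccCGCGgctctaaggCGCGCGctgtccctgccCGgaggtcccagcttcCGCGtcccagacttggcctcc
Slc22a18: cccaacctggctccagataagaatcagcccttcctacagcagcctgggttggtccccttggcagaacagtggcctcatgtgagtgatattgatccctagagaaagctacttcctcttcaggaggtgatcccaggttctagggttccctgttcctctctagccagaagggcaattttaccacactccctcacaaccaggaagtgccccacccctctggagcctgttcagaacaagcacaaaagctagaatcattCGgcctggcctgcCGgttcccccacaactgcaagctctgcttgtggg
Asb4 start 1: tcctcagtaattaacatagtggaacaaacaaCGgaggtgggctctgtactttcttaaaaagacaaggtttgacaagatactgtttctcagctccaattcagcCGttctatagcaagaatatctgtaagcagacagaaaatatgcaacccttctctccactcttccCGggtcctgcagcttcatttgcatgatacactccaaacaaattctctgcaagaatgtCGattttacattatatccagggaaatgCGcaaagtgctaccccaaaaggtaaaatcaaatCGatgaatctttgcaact
Asb4 start 2: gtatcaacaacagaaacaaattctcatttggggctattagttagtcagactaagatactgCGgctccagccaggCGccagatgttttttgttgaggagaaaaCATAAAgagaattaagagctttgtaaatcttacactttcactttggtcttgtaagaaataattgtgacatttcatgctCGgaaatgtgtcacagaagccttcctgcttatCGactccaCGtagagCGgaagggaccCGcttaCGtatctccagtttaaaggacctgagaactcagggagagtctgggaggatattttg
Nnat held 17 CG dinucleotides and Peg12 12, while Slc22a18 held 2 and the Asb4 starts 6 and 8, beside a median of 7 over the 32851 promoters of the table. The motif was found in the second Asb4 promoter, from base 103 on the minus strand, and its letters were not in the windows of the other 4. Over both strands it occurs in 11.9% of all promoters of the table and in 6 of 54 promoters (11.1%) of the 35 imprinted genes with an entry. A match of letters describes the sequence and not the binding of a factor.

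The maternally expressed genes held the lowest values of the set. Over the 22 detected ones the log2 ratio had a median of -0.06 (single arrays -0.04 and -0.09), beside 0.00 for all detected genes, and it was -0.04 without Ascl2. The 9 genes taken as imprinted across the embryo had a median of -0.34. Of the 9, 6 lay below 0 on each array, against 24.4% of all detected genes and 27% of the bright ones. Grb10 lay above 0, and Kcnq1 and Zim1 had opposite signs. With median centring of each array in place of loess, 4 of the 9 lay below 0 on each array, and the mean ratio was below 0 for all 9. The median of the 9 was then -0.44, beside -0.02 for all detected genes and -0.09 for the bright ones. Grb10 averaged -0.08 and Kcnq1 -0.01 by that setting, no lower than the bright genes and all detected genes, respectively. With loess, the 13 genes taken as imprinted mainly in placenta, brain or a few tissues had a median of -0.01. The split is from general knowledge and less settled for Dcn and for Slc22a18, Asb4, Zim1 and Kcnq1. Without the last 4, the 5 embryo-wide genes left had a median of -0.34, with 4 below 0 on each array and 1, Cdkn1c, lower by 1.3-fold. In bulk tissue, fewer cells of a type and less RNA per cell cannot be told apart, and this holds for every difference reported here.

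Cdkn1c, also called p57Kip2, encodes an inhibitor of cyclin-dependent kinases that restrains cell division and embryonic growth. Its signal was 5035 and 4662 units in the mutant pool on replicates 1 and 2, against 7510 and 7559 units in the wildtype pool (normalised intensity, arbitrary units). Before normalization, with the dyes exchanged, the brightness was 6933 and 3164 units in the mutant pool, against 5800 and 10675 units in the wildtype pool. After normalization both mutant signals lay well below both wildtype signals, and each pool's signal was similar on the arrays. The log2 ratios were -0.58 and -0.70, with a mean of -0.64 ± 0.09, or 1.56-fold lower in the mutant pool. Of the detected genes, 0.265% had a lower mean ratio. The probe spans 131165149 to 131165208 on chromosome 7 in the coordinates of the files, whose genome build they do not name.

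Asb4, an ankyrin repeat and SOCS box protein that recruits substrates to a ubiquitin ligase and is known from developing vessels, had signals of 1664 and 1660 units in the mutant pool, against 2425 and 2694 units in the wildtype pool. Again no signal of a pool reached the range of the other. Its log2 ratio averaged -0.62 ± 0.11, or 1.54-fold lower in the mutant pool. Slc22a18, an organic cation transporter-like protein, had 181 and 188 units in the mutant pool, against 287 and 259 units in the wildtype pool. Its ratios were -0.66 and -0.46, with a mean of -0.56 ± 0.14.

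The genes next in order were less steady. Phlda2, a pleckstrin homology protein that limits placental growth, had signals of 9593 and 7012 units in the mutant pool, against 10526 and 10248 units in the wildtype pool. The mutant signals were the lower ones on both arrays, but log2 ratios of -0.13 and -0.55 differed widely, and their mean of -0.34 ± 0.29 was close to the spread. H19, a long noncoding RNA that shares enhancers with Igf2, had 3572 and 2953 units in the mutant pool, against 5335 and 3234 units in the wildtype pool. The pools overlapped here, since the wildtype signal of replicate 2 was below the mutant signal of replicate 1. The H19 ratios were -0.58 and -0.13 (mean -0.35 ± 0.32).

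Igf2r, the receptor that takes IGF2 to lysosomes for degradation, had 4700 and 3845 units in the mutant pool, against 5373 and 5044 units in the wildtype pool. The pools did not overlap, and the log2 ratio averaged -0.29 ± 0.14. Grb10, an adaptor that dampens insulin and IGF signalling, had 5676 and 8662 units in the mutant pool, against 5561 and 8439 units in the wildtype pool. Its signal differed between arrays but hardly between pools, and the ratios were 0.03 and 0.04. Kcnq1, a potassium channel subunit, averaged 0.00 ± 0.09, and the zinc finger gene Zim1 gave -0.50 and 0.08, which differ by more than their mean of -0.21. Zim1 was dim, with 69.2 and 79.6 units in the mutant pool, against 97.8 and 75.2 units in the wildtype pool. The dimmest of the 3 Kcnq1 probes gave -0.69 and 0.44, and the other one 0.11 and 0.07.

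**Figure D2:**
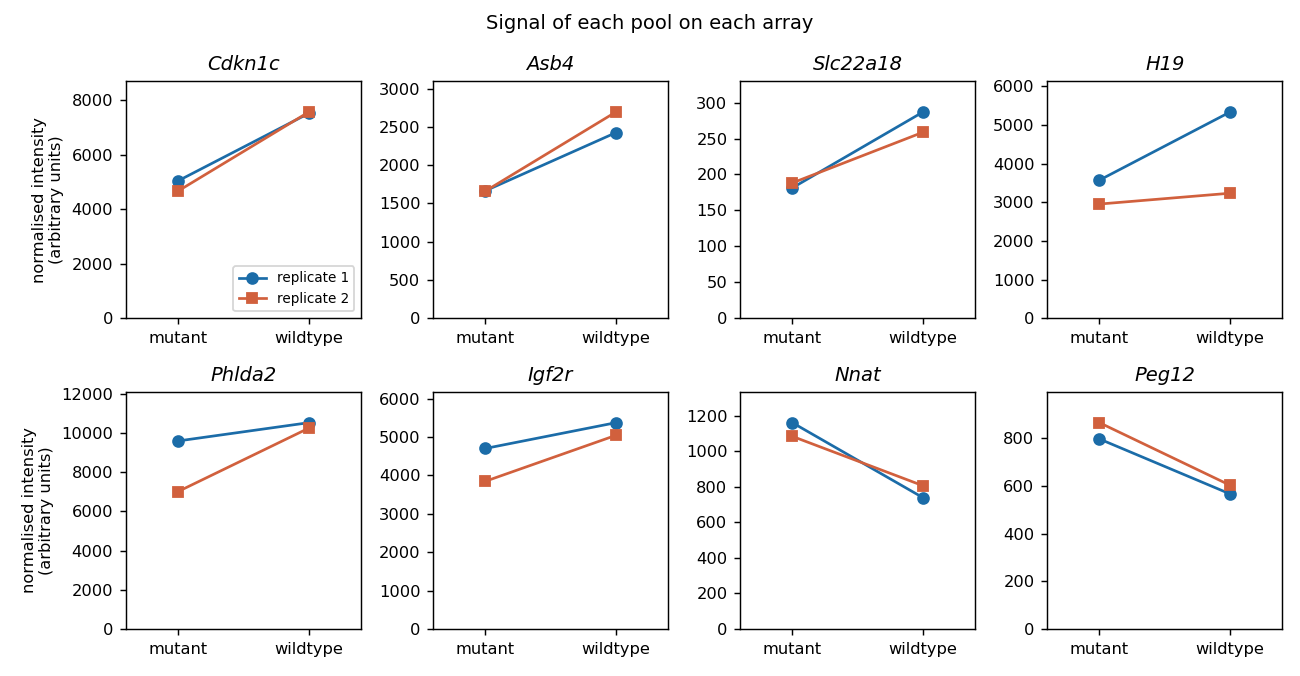
Normalised intensity in arbitrary units (vertical, from 0, scaled per gene) of 8 imprinted genes in the mutant pool (left in each panel) and the wildtype pool (right), with a line per array in circles for replicate 1 and squares for replicate 2. Both lines are lower at the mutant pool for Cdkn1c, Asb4 and Slc22a18, H19 differs mainly on replicate 1 and Phlda2 mainly on replicate 2, and Nnat and Peg12 are higher in the mutant pool on both.

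Markers of several cell types differed between the same pools, and their part in the values above was not tested. Of all detected genes, 24.4% lay below 0 on each array and 0.231% were lower by 1.5-fold on each array. Of 11 detected endothelial markers 10 lay below 0 on each array, with a median log2 ratio of -0.37, and Cldn5 and Sox18 were lower by 1.5-fold on each array. Their summed signal was 8724 and 8161 units in the mutant pool, against 12369 and 11104 units in the wildtype pool. Of 11 markers of lateral plate and allantois 7 lay below 0 on each array (median -0.15; Foxf2 -0.58 and Hand2 -0.39 by mean log2 ratio), with sums of 3805 and 3600 units in the mutant pool, against 4286 and 4327 units in the wildtype pool. The 7 detected trophoblast and placenta markers had a median of -0.01. Plac1 (mean -1.03) alone was lower by 1.5-fold on each array, and Tfap2c averaged 0.20. The sums, in which Plac1 was the brightest marker, were 1725 and 1648 units in the mutant pool, against 2136 and 2323 units in the wildtype pool. No listed marker can read 0 on this scale, since each signal includes an offset of 50 units.

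Other markers lay the other way or near 0. The 9 detected paraxial mesoderm markers had a median of 0.13, and Meox1, Tcf15, Foxc2 and Dll1 were higher by 1.5-fold on each array. Among all detected genes 0.212% were higher by that rule. Of 10 gut endoderm markers Trh, Nepn and Spink1 were higher by that rule (median 0.17). The 7 detected neural tube markers had a median of 0.02, and Sox2 was higher by that rule, while Irx3 averaged 0.46. The 9 detected primitive blood markers had a median of -0.10 and the 8 detected yolk sac markers 0.02, with none past 1.5-fold on each array. Their largest absolute means were those of Tal1 (-0.49) and Alas2 (-0.23) for blood and Amn (0.42) and Rbp4 (0.31) for yolk sac.

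Cdkn1c, Slc22a18 and Phlda2 are neighbours on chromosome 7. Around them, 8 genes of the set were detected in the interval of 0.721 Mb between the Ascl2 and Osbpl5 probes, which holds the Kcnq1 imprinted cluster. Their median log2 ratio was -0.19, and 5 of them lay below 0 on each array, against 24.4% of all detected genes. Without Ascl2 the median of the other 7 was -0.12, with 4 below 0 on each array. Of the 10 other detected genes or transcripts of the interval, 5 are maternally expressed by a further list (Tspan32, Nap1l4, Tnfrsf22, Tnfrsf23 and Tnfrsf26), and their means lay between 0.02 and 0.12. The paternally expressed Kcnq1ot1 averaged -0.07, and the 4 in neither list lay between -0.01 and 0.10. None of the 10 was lower by 1.3-fold on each array. Low values were thus not shared by all genes listed as maternally expressed in the interval. The further list was not split by tissue of imprinting, and Ascl2, Cd81, Tssc4 and Osbpl5 were taken as imprinted mainly in placenta. Whether any of these genes is imprinted in posterior embryo tissue was not tested. The lowest means were those of Cdkn1c, Slc22a18 and Phlda2, whose probes lie within 42.1 kb. Phlda2 was low mainly on replicate 2 (-0.55), and its -0.13 on replicate 1 was close to the -0.12 of Osbpl5. Low values were not shared by Kcnq1, with its probe 33.5 kb from that of Cdkn1c, or by Nap1l4 on the other side (0.31 and -0.06).

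Kcnq1ot1, the paternally expressed noncoding RNA that silences this cluster on the paternal copy, had log2 ratios of -0.11 and -0.02. The tetraspanin gene Cd81 gave 0.04 and -0.11, and Tssc4, whose human counterpart helps assemble the splicing machinery, gave 0.09 and 0.01. Osbpl5, an oxysterol-binding protein gene, had ratios of -0.12 on both arrays; a dimmer probe gave 0.06 and -0.07, and the dimmest -0.15 and -0.10. For Ascl2, a basic helix-loop-helix factor of trophoblast, no array had the mutant pool well above background. Its signals were 64.1 and 68.4 units in the mutant pool, against 89.0 and 70.3 units in the wildtype pool, and the log2 ratios were -0.47 and -0.04. The difference thus rests on replicate 1. The scanner software's ratio averaged -1.17, so no size is read for this gene.

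**Figure D3:**
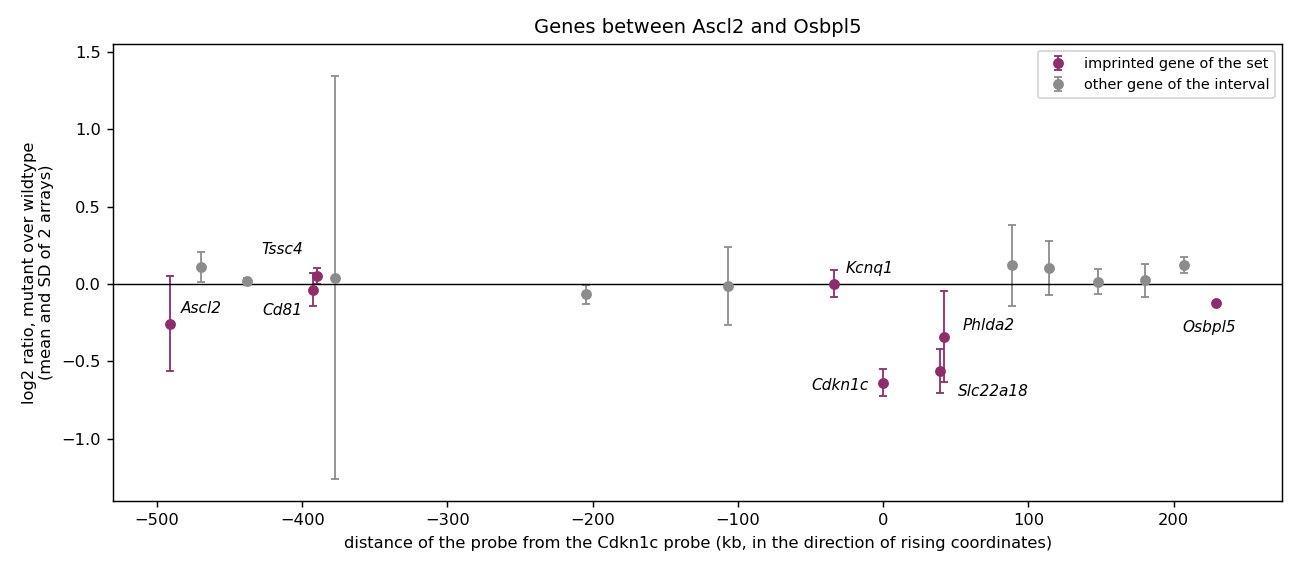
Mean log2 ratio of mutant over wildtype with the SD of 2 arrays (vertical) for 8 genes of the set (purple) and 10 other detected genes (grey), 6 of them also imprinted by the further lists, between Ascl2 and Osbpl5, against the distance of each probe from the Cdkn1c probe in kb. Cdkn1c, Slc22a18 and Phlda2 have the lowest means, Ascl2 follows at -0.26, the other genes lie within 0.12 of 0, and the long bar is Trpm5, with -0.88 on replicate 1 and 0.96 on replicate 2.

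The genes whose maternal expression is known mainly from placenta or brain lay on both sides of 0. Ppp1r9a, which encodes the actin-binding neurabin, had 138 and 116 units in the mutant pool, against 163 and 148 units in the wildtype pool, and a mean log2 ratio of -0.29 ± 0.08. H13, a signal peptide peptidase gene, gave -0.10 and -0.09. The creatine synthesis gene Gatm gave 0.05 and -0.11, and Th, which encodes the tyrosine hydroxylase of catecholamine synthesis, gave 0.08 and -0.10. Copg2, a coat protein gene of vesicle transport, gave 0.02 and 0.05. None of these last 4 had a mean ratio farther than 0.10 from 0.

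Dcn, the gene of the matrix proteoglycan decorin, had the highest mean ratio among the maternally expressed genes of the set. It was dim, with 116 and 122 units in the mutant pool, against 92.7 and 95.4 units in the wildtype pool, and its log2 ratio averaged 0.34 ± 0.02. Blcap, in whose intron Nnat lies, encodes a small protein and had 387 and 415 units in the mutant pool, against 314 and 372 units in the wildtype pool, with ratios of 0.30 and 0.16. The ubiquitin ligase gene Ube3a gave 0.25 and 0.09, and the lipid flippase gene Atp10a gave 0.36 and 0.06. For these 4 genes the mutant signals lay above the wildtype signals without overlap.

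The 15 detected paternally expressed genes had a median log2 ratio of -0.02 (single arrays 0.02 and -0.03). On each array 4 of the 15 lay above 0 and 4 below 0, near the 23.3% and 24.4% of all detected genes. The other 7 had opposite signs. The highest values were those of Nnat and Peg12. Nnat encodes neuronatin, a small membrane protein of the endoplasmic reticulum expressed in developing brain and hormone-secreting cells. Its signal was 1162 and 1085 units in the mutant pool, against 739 and 807 units in the wildtype pool. Both mutant signals exceeded both wildtype signals, and the log2 ratios were 0.65 and 0.43 (mean 0.54 ± 0.16, or 1.45-fold higher in the mutant pool).

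Peg12 encodes a relative of the Frat proteins, which bind the kinase GSK3 in Wnt signalling. It had 798 and 866 units in the mutant pool, against 567 and 603 units in the wildtype pool. The pools did not overlap, and the ratios of 0.49 and 0.52 (mean 0.51 ± 0.02, or 1.42-fold higher) were the steadiest among the genes past 1.3-fold. Of all detected genes, 99.7% had a lower mean ratio than Nnat and 99.6% a lower one than Peg12. Dlk1, a membrane protein related to Notch ligands, had 7729 and 7711 units in the mutant pool, against 6147 and 6847 units in the wildtype pool. Its ratio averaged 0.25 ± 0.11, short of 1.3-fold on each array. Mkrn3, a RING finger protein gene, had ratios of 0.24 and 0.14.

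At the other end lay Peg3, a zinc finger protein gene, with 562 and 556 units in the mutant pool, against 677 and 638 units in the wildtype pool. Its log2 ratio averaged -0.23 ± 0.05, and the pools did not overlap. The retrotransposon-derived Peg10 gave -0.26 and -0.15, with overlapping pools, and Sgce, which encodes epsilon-sarcoglycan, gave -0.02 and -0.20. Igf2, the fetal growth factor gene, had 161 and 173 units in the mutant pool, against 169 and 174 units in the wildtype pool. The pools overlapped on this dim probe, and the ratios were -0.07 and -0.01.

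The remaining paternally expressed genes had ratios of opposite sign on the arrays. Mest, a hydrolase gene, had 21185 and 18805 units in the mutant pool, against 20200 and 20525 units in the wildtype pool, with overlapping pools. Its ratios were 0.07 and -0.13, and 3 further detected probes had means of 0.03, 0.05 and 0.21, the last on a dim probe. Ndn, which encodes the MAGE family protein necdin, gave 0.04 and -0.18, and its relative Magel2 gave 0.01 and -0.03. Usp29, a ubiquitin protease gene, gave 0.02 and -0.06. Impact, which encodes a translational regulator, gave 0.08 and -0.28, Rasgrf1, an exchange factor for Ras, gave -0.19 and 0.22, and the amino acid transporter gene Slc38a4 gave -0.12 and 0.14.

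Gnas encodes the stimulatory G protein alpha subunit and, from other promoters, transcripts made from only the maternal or only the paternal copy. Its brightest probe had 16195 and 16336 units in the mutant pool, against 19220 and 17285 units in the wildtype pool. The pools did not overlap, and the mean log2 ratio was -0.16 ± 0.12. A dimmer Gnas probe gave 0.21 and 0.03, so the probes differ in sign, and the third was not detected. Which Gnas transcripts each probe reads is not given in the files.

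**Figure D4:**
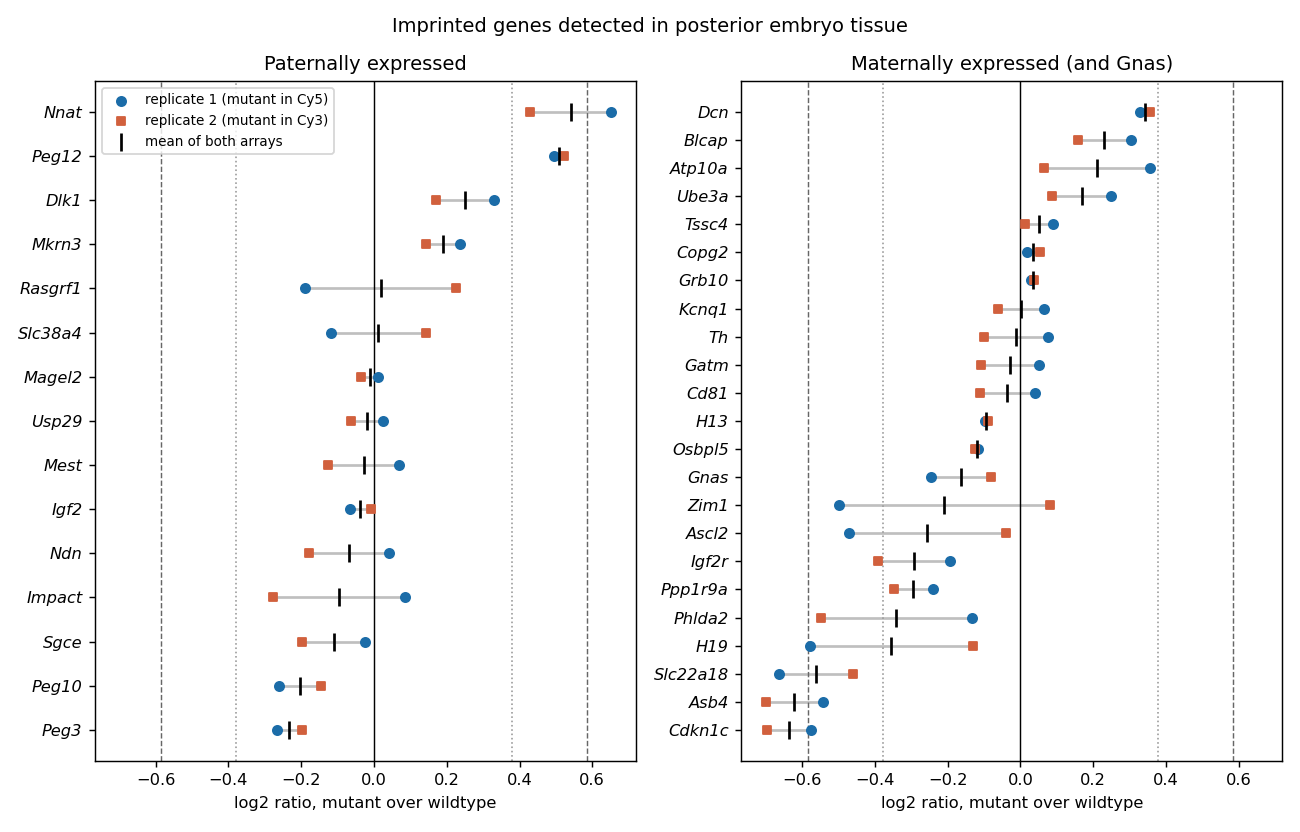
Log2 ratio of mutant over wildtype (horizontal) of each detected imprinted gene on replicate 1 (circles) and replicate 2 (squares), with the mean of both as a black bar, for 15 paternally expressed genes (left) and 22 maternally expressed genes with Gnas (right); dashed lines mark 1.5-fold and dotted lines 1.3-fold. Most genes lie between the dotted lines, with Nnat and Peg12 beyond them on the high side and Cdkn1c, Asb4 and Slc22a18 on the low side.

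Some neighbours of opposite parental class lay on the same side of 0. Of all detected genes, 23.3% lay above 0 and 24.4% below 0 on each array. In the Snrpn cluster of chromosome 7 the 6 detected genes had a median log2 ratio of 0.18, and Peg12, Mkrn3, Atp10a and Ube3a, which differ in parental origin, lay above 0 on each array. Mkrn3 and Atp10a were dim (mean log2 intensity 6.76 and 7.14). Ndn (0.04 and -0.18) and Magel2 (0.01 and -0.03) of the same cluster had opposite signs on the arrays. In the Peg10-Sgce cluster of chromosome 6 the 4 detected genes all lay below 0 on each array, with a median of -0.25. These were the paternally expressed Peg10 and Sgce and the maternally expressed Ppp1r9a and Asb4. Peg10, Sgce and Ppp1r9a were dim (mean log2 intensity 6.96, 7.09 and 7.14), and Sgce gave only -0.02 on replicate 1. Nnat and Blcap, with probes 4.27 kb apart and listed with opposite parental class, lay above 0 on each array. Blcap, Ube3a, Atp10a and Ppp1r9a were taken above as imprinted mainly in placenta, brain or a few tissues. Whether their parental class holds in posterior embryo tissue was not tested. The H19 and Igf2 probes, 74.8 kb apart, gave mean ratios of -0.35 ± 0.32 and -0.04. The Igf2 probe was dim, and the H19 value came mainly from replicate 1.

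Other imprinted genes, taken from 2 further lists, lay near 0 as groups. The 11 detected of 12 other paternally expressed genes had a median log2 ratio of 0.03, with 0 past 1.3-fold on each array. The largest absolute means were those of Nap1l5 (0.56 and 0.26), a nucleosome assembly protein-like gene, and the noncoding Peg13 (-0.41 and -0.29). Nap1l5 was dim (mean log2 intensity 6.74). Snurf, which is read from the same transcript as Snrpn, was bright and gave 0.17 and 0.35, while the Snrpn probe itself was not detected. The 19 detected of 25 other maternally expressed genes had a median of -0.04. Pon3, a paraoxonase gene of the Peg10-Sgce region, was lower by 1.3-fold on each array (-0.54 and -0.44), and the chloride channel gene Ano1 gave 0.33 and 0.84. Both were dim (mean log2 intensity 7.24 for Pon3 and 6.58 for Ano1).

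Genes that set or keep imprints showed no member past 1.3-fold on each array. The 15 detected of 18, among them the DNA methyltransferase gene Dnmt1 (0.03 and 0.04), had a median log2 ratio of 0.06. The germ cell and oocyte factor gene Dppa3 (0.28 and 0.24) and the Polycomb methyltransferase gene Ezh2 (0.30 and 0.17) had the largest absolute means. Dppa3 was dim (mean log2 intensity 6.80). In the insulin-like growth factor pathway, on which Igf2, Igf2r and Grb10 act, the 17 detected of 18 other genes had a median of 0.02. No gene of that list passed 1.5-fold on each array. The growth factor gene Igf1 (-0.47 and -0.56) and the binding protein gene Igfbp5 (-0.39 and -0.49) were lower by 1.3-fold on each array. Igf1 was dim (mean log2 intensity 7.24). Igfbp3 gave -0.35 and -0.60, and Igfbp2 gave 0.40 and 0.32.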

How the data were processed

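Per the labels, RNA of 7 pooled embryos per genotype was set against the other genotype on each of 2 arrays. The deposited intensity values are mean spot brightness and median local background in Cy3 and Cy5, with no correction applied, per the file headers. A deposited log10 ratio of Cy5 to Cy3, which the file headers describe as detrended and LOWESS-normalized by the scanner software, served as an alternative. The software is Agilent Feature Extraction, 9.5.3 per the submitters' processing notes and 7.5.1 per the file headers.

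From the intensities, signals were corrected with normexp (offset 50) and normalized by loess within each array in limma 3.58.1 (R 4.3.3), with control spots at weight 0. An offset shrinks the ratios of dim genes. The labels' dyes set the direction of each ratio, mutant over wildtype. Spots flagged as non-uniform were left out (205 and 90), and spots of a probe were averaged. The brightest detected probe stood for a gene. Printed signals are per channel after loess and Aquantile normalization, include the offset and are not compared between probes. The arrays were read as 1 comparison of 2 pools, although it is not stated whether they share extracts, so no test between genotypes was made. The size rule was 1.5-fold in the same direction on each array, with 1.3-fold beside it. The steps were tested on simulated arrays.

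Of 41013 probes, 19435 were named by accession, 3965 by symbol and 2944 by synonym through a RefSeq table of GRCm38.p6, 211 stayed unnamed because more than 1 gene matched, and for 14458 the name in the files was used. Parental class, gene lists and markers came from general knowledge, and the members and lists were chosen with earlier results of these data known. Named were all imprinted genes of the set and, per other list, genes past 1.5-fold or the largest absolute means to make 2. Snurf, Kcnq1ot1, Nap1l4, Trpm5, Dnmt1, Igfbp2, Igfbp5, Tbx6 and Msgn1 were named in addition after values were seen. Alternatives covered background correction, normalization, filters, probe choice, thresholds and each array left out.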

Additional observations from a re-analysis of the deposited data

How the results depend on the processing

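No imprinted gene passed 1.5-fold on each array without background subtraction, with an offset of 16, with median centring, with Aquantile normalization, with no detection filter, with the median over probes, or with a filter at 95% of the negative controls, the last added after seeing the data. With the scanner software's ratio 1 gene was higher (Dcn, 0.61 and 0.73) and 2 were lower (Cdkn1c and Slc22a18). Shares of all detected genes are given for the main setting only. At 1.3-fold on each array 2 were higher and 3 lower, and by the mean of both arrays 2 were lower (Cdkn1c and Asb4). At 2-fold the counts were 0. With a single array, 0 to 1 genes were higher (Nnat without replicate 2) and 1 to 2 were lower (Slc22a18 without replicate 2, Cdkn1c and Asb4 without replicate 1). The median log2 ratio of the paternally expressed genes was -0.072 with median centring and -0.035 to 0.025 with a single array, and that of the maternally expressed genes was -0.15 with median centring. The cause of these shifts was not tested. Median centring left bright genes at medians of 0.52 on replicate 1 and -0.69 on replicate 2, so that Cdkn1c gave -0.03 and -1.44. By the mean of both arrays, the median was then -0.09 for bright genes and -0.02 for all detected genes. With median centring, Asb4 gave -0.05 and -1.37, Slc22a18 -0.373 and -0.81, Nnat 1.11 and -0.18, and Peg12 0.93 and -0.06. Neither these genes nor Cdkn1c then passed 1.3-fold on each array. Without background subtraction Slc22a18 (-0.563 and -0.373) fell short of 1.3-fold on each array. With an offset of 16 Dcn (0.50 and 0.53) passed that size. Of the 8 alternatives that use both arrays, 3 (Aquantile and both filters) leave every ratio as it is. Over the 5 that alter ratios, 30 of 38 genes kept the sign of their mean, and the other 8 had absolute log2 ratios of at most 0.05. Dim genes are limited by background: Dcn averaged 0.23 without background subtraction and 0.67 with the software's ratio. Each ratio is already a difference of both pools within an array, so the pairing by array was kept. No fit across samples was made.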
